A study of Homo sapiens with 9 samples.

Results

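Expression in the 3 libraries of FaDu cells labelled as AMIGO2 knockdown with CAPN2 overexpression was compared with that in the 3 libraries labelled as normal control, across all genes. The 6 libraries were chosen by their labels out of 9 in the series, and the other 3 are labelled AMIGO2 knockdown alone. FaDu is an established line of human squamous carcinoma of the hypopharynx, and all 9 libraries come from cultures of it. AMIGO2 encodes a leucine-rich repeat protein of the cell surface. CAPN2 encodes the catalytic subunit of calpain-2, a protease that needs calcium. The labels call the cultures biological replicates, so the p-values measure the spread between cultures of 1 line. The sources used here do not name the knockdown sequence or the expression vector, nor say whether the cells with these labels are 1 clone.

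Several cellular programmes described below have well known wiring. Proteins that enter the endoplasmic reticulum (ER) are folded there by chaperones and disulfide isomerases, and 3 membrane sensors, encoded by ERN1, ATF6 and EIF2AK3, raise the transcription of folding genes when unfolded protein builds up. The integrated stress response starts with phosphorylation of the initiation factor eIF2, which lowers translation in general while ATF4 protein is made and induces genes of amino acid supply and of feedback. In dividing cells, E2F factors drive genes of DNA replication, and B-MYB, FOXM1 and the DREAM complex set the timing of genes of mitosis.

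The 6 libraries held between 15158607 and 17730088 counts, and the lowest total lay in a control library. At these depths 3 counts correspond to between 0.169 and 0.198 CPM (counts scaled to library size). Levels below are CPM after scaling by trimmed mean of M values (TMM) factors, and fold changes are log2 values with their standard errors (SE). Correlations of log2 CPM lay between 0.984 and 0.99 for libraries of the same group among all 9, and between 0.945 and 0.957 across the groups compared. The first principal component of the 9 libraries held 50.3% of the variance and the second 23.3%. Mitochondrial ribosomal RNA made up 0.557% ± 0.0234 of counts in the control libraries and 1.04% ± 0.0191 under the knockdown plus CAPN2 label (SD, n = 3), and its part in the results was not tested. Over 12 markers of squamous epithelium the control libraries summed to between 9468 and 9959 CPM. Those labelled knockdown plus CAPN2 summed to between 5582 and 6182 CPM. Of these 12 markers 8 were called lower and 2 higher, and KRT5, whose values are given below, held most of the difference. Of 11 blood and immune markers 6 were at 0 counts in all control libraries. Under the knockdown plus CAPN2 label 6, not all the same genes, were at 0 counts in all libraries. The list summed to between 14.7 and 18.6 CPM in control and between 5.67 and 9.16 CPM under that label. Endothelial markers went from between 18.9 and 24.0 to between 16.85 and 18.5 CPM, and fibroblast markers from between 8.24 and 9.77 to between 13.5 and 15.5 CPM. Neural and muscle markers went from between 3.44 and 4.32 to between 8.72 and 12.3 CPM. Markers of other epithelium went from between 22.6 and 24.7 to between 34.4 and 37.55 CPM, and 3 of their 4 tested genes were called higher. Only 1 fibroblast, 1 blood and immune, 2 neural and muscle and 3 endothelial markers had enough counts to be tested. These sums therefore rest on few genes each and do not describe whole cell types. The part of these shifts in the results was not tested. In bulk RNA, fewer cells in a state and less RNA per cell cannot be told apart.

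The gene named as knocked down was not lower. AMIGO2 (ENSG00000139211, GRCh38 chromosome 12, 47075707 to 47079951, minus strand) was at 29.5, 26.1 and 27.2 CPM in the control libraries and 42.8, 35.3 and 38.8 CPM under the knockdown plus CAPN2 label, and at 24.5, 31.3 and 27.3 CPM in those labelled knockdown alone. The groups compared did not overlap, and the libraries labelled knockdown plus CAPN2 were the higher ones (log2 fold change 0.50 ± 0.11, 95% interval 0.26 to 0.74, adjusted p = 0.00106; edgeR quasi-likelihood test with Benjamini-Hochberg adjustment, as for every adjusted p below). CAPN2 (ENSG00000162909, GRCh38 chromosome 1, 223701593 to 223776018, plus strand), the gene named as overexpressed, was at 447, 474 and 466 CPM in the control libraries and 498, 498 and 500.2 CPM under the knockdown plus CAPN2 label. The groups compared did not overlap for CAPN2, but the difference did not pass the test (log2 fold change 0.11 ± 0.079, 95% interval -0.06 to 0.28, adjusted p = 0.255). It passed when only the 6 compared libraries were fitted (log2 fold change 0.12, adjusted p = 0.0389) and had the opposite sign with offsets for GC content and length (-0.09, adjusted p = 0.255). The libraries labelled knockdown alone were at 395, 424 and 435 CPM. The deposited counts do not separate transcripts of a construct from those of the cell's own gene, and protein was not measured. AMIGO2 also shares exonic bases with another gene, so its values are uncertain where reads from both cannot be told apart. The groups are therefore called by their labels throughout. Among the other calpain genes, CAPN1 fell from 473 to 264 CPM (log2 fold change -0.84, adjusted p = 1.65e-07), the shared small subunit CAPNS1 stood at 227 and 209 CPM without passing the test (log2 fold change -0.12, and 0.15 with GC and length offsets, adjusted p = 0.076), and the inhibitor CAST rose from 192 to 227 CPM. The call of CAST was lost without control replicate 1, 2 or 3 or without knockdown plus CAPN2 replicate 1 (adjusted p between 0.0523 and 0.0684), and its log2 fold change was -0.16 with GC and length offsets. Of 11 tested calpain genes 4 rose (36.4%) and 2 fell (18.2%), and without control replicate 3 the risen ones were 2. In the family of AMIGO and related leucine-rich repeat genes 2 of 8 rose (25%) and 0 fell, or 1 with GC and length offsets. Over all tested genes 27.9% rose and 28.4% fell.

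Most tested genes differed. Of 16812 genes tested, 9468 (56.3%) were called at an adjusted p under 0.05, of which 4692 (27.9% of tested genes) were higher and 4776 (28.4%) lower in the libraries labelled knockdown plus CAPN2. Among the calls, 1951 genes (11.6%) were at least 2-fold higher and 1261 (7.5%) at least 2-fold lower, and at 4-fold the numbers were 379 and 105. The 3 libraries of one group all lay above or all below the 3 of the other for 11249 genes (66.9%). The median called gene changed by 0.78 on the log2 scale, against a median SE of 0.142 over all tested genes. The median log2 fold change of all tested genes was 0.02. These shares are the background against which each gene list below is read. The knockdown libraries entered the same fit and their means are given beside those of the groups compared. Any difference of theirs from control shares the control libraries, and 8278 of 16812 genes (49.2%) were called between the libraries labelled knockdown plus CAPN2 and those labelled knockdown.

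**Figure D1:**
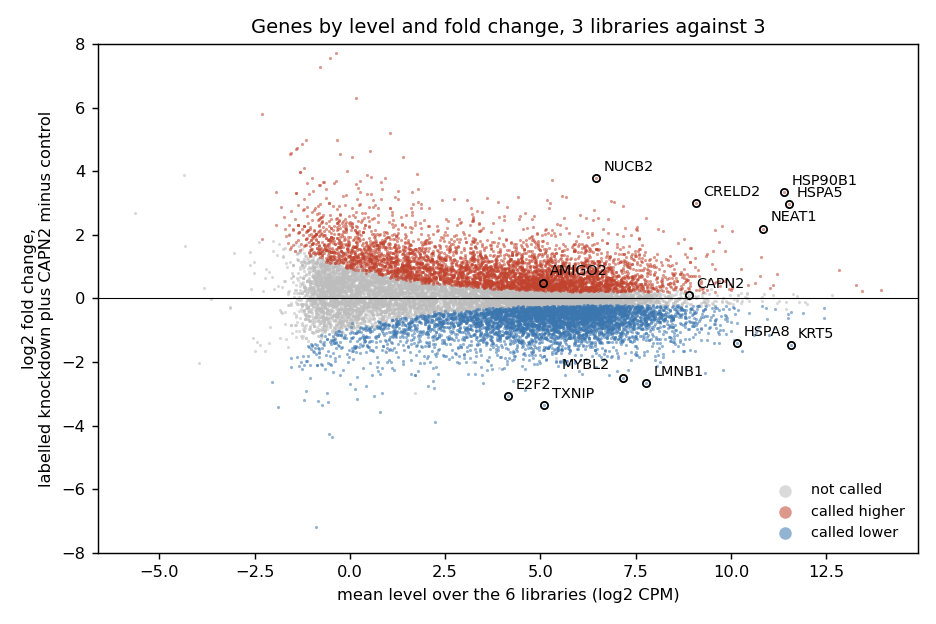
Each point is 1 of 16812 tested genes, placed by its mean level over the 6 libraries (log2 CPM, horizontal) and its log2 fold change in libraries labelled knockdown plus CAPN2 against control (vertical), red if called higher, blue if called lower and grey if not called. HSPA5 and HSP90B1 stand apart as genes with both a high mean CPM and a rise of more than 7-fold. AMIGO2 was called higher at a log2 fold change of 0.50, and CAPN2, at 0.11, was not called.

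**Figure D2:**
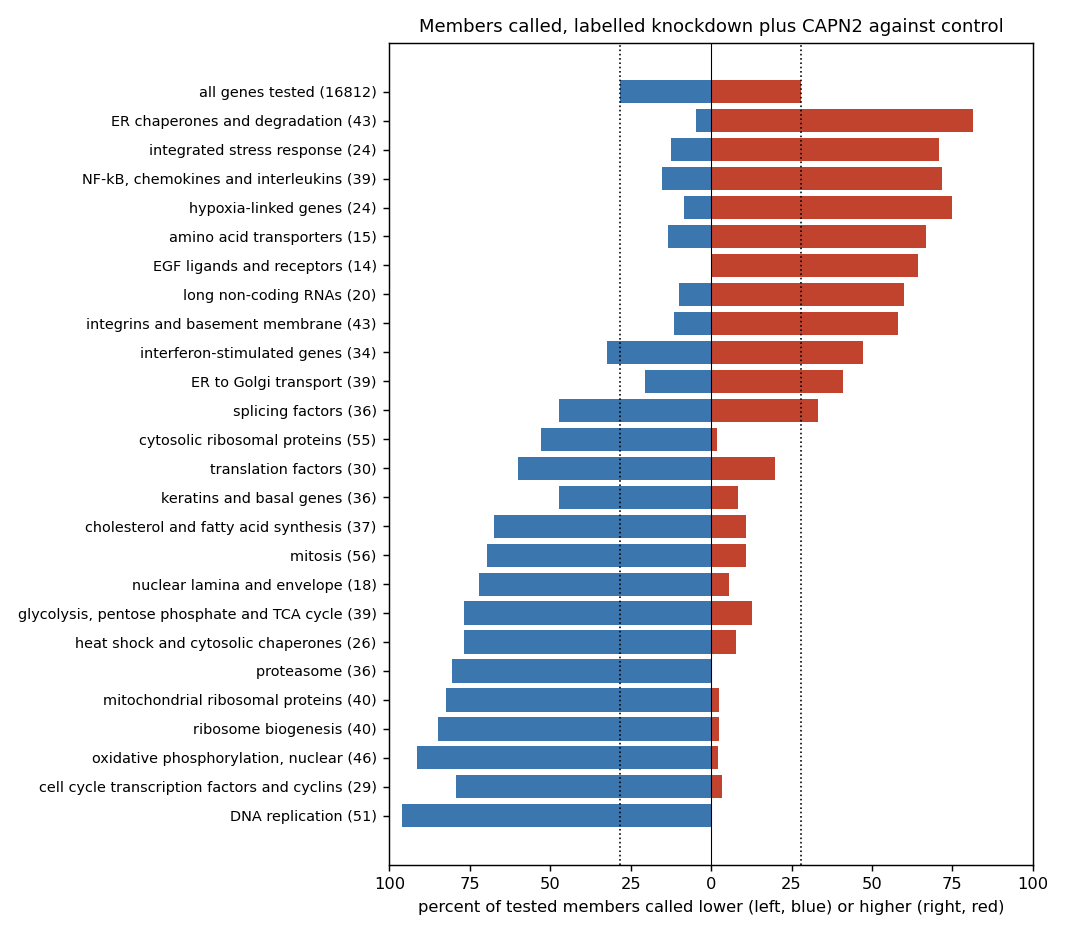
Bars give the percent of tested members called higher (red, to the right) or lower (blue, to the left) for all tested genes and for 25 gene lists, with the number of tested members in brackets and dotted lines at the shares of all tested genes, 27.9% and 28.4%. ER, stress response, cytokine and hypoxia-linked lists lie to the right, and lists of replication, mitochondria, ribosome assembly and proteasome to the left.

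Genes of protein folding in the endoplasmic reticulum rose together, several of them to very high levels. All 18 tested chaperones and foldases rose, with a median log2 fold change of 2.04. Over the whole list of folding, degradation and translocation genes 35 of 43 rose and 2 fell, with a median of 1.29. HSPA5 (ENSG00000044574, GRCh38 chromosome 9, 125234853 to 125241330, minus strand), which encodes BiP, the major HSP70 chaperone of the ER lumen, was at 655, 686 and 677 CPM in the control libraries and 5122, 5209 and 5284 CPM under the knockdown plus CAPN2 label. That is a 7.74-fold rise with no overlap (log2 fold change 2.95 ± 0.094, adjusted p = 4.80e-14), and HSPA5 was among the 10 called genes with the highest mean CPM, a scale without regard to gene length. HSP90B1 (ENSG00000166598, GRCh38 chromosome 12, 103930107 to 103953645, plus strand), the ER member of the HSP90 family, was at 504, 447 and 497 CPM in the control libraries and 5196, 4939 and 4617 CPM under the knockdown plus CAPN2 label. Its 10.2-fold rise was the larger of the pair (log2 fold change 3.35 ± 0.11, adjusted p = 4.80e-14). Per kilobase of gene model, HSPA5 and HSP90B1 went from 172 and 103 to 1332 and 1047 RPKM (CPM divided by gene length in kilobases). On that scale the disulfide isomerase P4HB, at 249 RPKM, was above both in the control libraries and, at 348 RPKM, below both in the other group.

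The same direction held for cofactors and redox enzymes of the ER. CRELD2, a secreted ER protein with disulfide isomerase activity, was at 114, 131 and 118 CPM in the control libraries and 904, 919.96 and 1049.6 CPM under the knockdown plus CAPN2 label (log2 fold change 2.98 ± 0.10, adjusted p = 9.75e-14). ERO1B, an oxidase that recharges the isomerases, was at 7.58, 6.54 and 8.55 CPM in the control libraries and 70.4, 62.5 and 60.6 CPM under the knockdown plus CAPN2 label (log2 fold change 3.09 ± 0.13, adjusted p = 1.42e-12). Both were more than 7-fold higher with no overlap. Among the partners of BiP, DNAJB9 had a log2 fold change of 2.49, DNAJC3 of 2.03, DNAJB11 of 2.00 and the nucleotide exchange factor HYOU1 of 2.28. The lectin chaperones CALR and CANX, which hold glycoproteins during folding, rose from 388 to 1690.2 CPM and from 1016 to 2486 CPM. SDF2L1 (log2 fold change 2.06), MANF (2.18), PDIA4 (1.77), PDIA3 (1.5), PDIA6 (1.4), DNAJC10 (1.38) and ERO1A (1.06) rose as well. The smallest change of the role was that of P4HB, at 0.48.

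Sensors and most degradation and translocation genes rose with the chaperones, while the channel subunits SEC61A1 and SEC61B did not. ERN1, the kinase and nuclease IRE1, rose from 27.1 to 70.6 CPM (log2 fold change 1.38), ATF6 from 104 to 149 CPM (0.52) and XBP1, the factor whose messenger IRE1 splices, from 81.2 to 212 CPM (1.38). The counts are per gene and do not tell spliced from unspliced XBP1. CREB3L2, a membrane-bound transcription factor, rose from 21.3 to 62.6 CPM. Of the 11 tested degradation genes 7 rose and 1 fell. HERPUD1, a membrane organiser of the retrotranslocation complex, had a log2 fold change of 2.53, the adaptor SEL1L of that complex of 2.16 and the ubiquitin ligase SYVN1 of 1.56. DERL1 fell (-0.26), a call that was lost without control replicate 3 (adjusted p = 0.0533), without knockdown plus CAPN2 replicate 1 (adjusted p = 0.0603) or with upper-quartile factors (adjusted p = 0.109), and EDEM2 and OS9 did not pass the test. In the translocation role 6 of 10 genes rose, with SEC63 at 0.95 and SPCS2, a signal peptidase subunit, at 0.97. The channel subunit SEC61A1 was at 392 and 395 CPM without passing the test (but was called higher with GC and length offsets, at 0.15), and SEC61B fell (log2 fold change -0.57).

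In the libraries labelled knockdown alone HSPA5 and HSP90B1 lay between the groups compared. HSPA5 was there at 1657, 1737 and 1983 CPM and HSP90B1 at 1064, 1259.5 and 1344 CPM, and no library of these 3 overlapped either of the other groups for these genes. XBP1 was at 80.2, 84.0 and 99.5 CPM, where 1 of the 3 libraries lay below the lowest control library. The direct contrast of knockdown plus CAPN2 with knockdown gave log2 differences of 1.54 for HSPA5 (adjusted p = 1.26e-10), 2.01 for HSP90B1 (adjusted p = 1.82e-11) and 1.27 for XBP1 (adjusted p = 2.05e-09).

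Promoters of several of these genes hold the ER stress response element (ERSE), which ATF6 binds together with NF-Y. It consists of CCAAT and CCACG, 9 bases apart, and was searched on both strands of the 250 bases before the RefSeq start (build GRCh38.p14), where 11490 of 16792 tested gene symbols had an entry. It was found in 13 promoters (0.113%) and 14 places, which are 12 sites, since CRELD2 with ALG12 and EIF2A with SERP1 are pairs of genes that face each other across the same element. Of the 13 genes 12 were called higher, 0 lower and 1, ZNF17, was not called, with a median log2 fold change of 1.38. The others were HSPA5, HSP90B1, XBP1, CALR, ERO1B, FICD, TMEM120A and TRIM5. FICD, which modifies BiP by AMPylation, rose from 3.42 to 17.4 CPM, and TRIM5, an antiviral restriction factor, rose from 18.8 to 31.1 CPM. The call of TMEM120A (7.57 and 10.97 CPM) was lost without control replicate 1 (adjusted p = 0.0858) or knockdown plus CAPN2 replicate 3 (adjusted p = 0.12). In the list of folding and degradation genes 6 of 40 promoters held it (15%). The sequences below are those of HSPA5 and HSP90B1, of the factor XBP1 and of the shared element of CRELD2 and ALG12, written 5′ to 3′ on the strand of the gene, with the element in capitals.
HSPA5: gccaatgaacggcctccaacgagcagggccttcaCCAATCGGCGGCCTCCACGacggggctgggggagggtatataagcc
HSP90B1: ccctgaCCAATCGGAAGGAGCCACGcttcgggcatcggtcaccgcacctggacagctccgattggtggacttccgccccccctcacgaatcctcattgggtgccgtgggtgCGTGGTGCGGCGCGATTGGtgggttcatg
XBP1: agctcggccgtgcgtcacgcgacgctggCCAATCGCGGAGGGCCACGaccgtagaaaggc
CRELD2: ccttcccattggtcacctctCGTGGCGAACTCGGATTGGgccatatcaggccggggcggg
ALG12: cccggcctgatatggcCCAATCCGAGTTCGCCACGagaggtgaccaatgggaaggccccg
They lie at chr9:125241364-125241443, minus strand (HSPA5), chr12:103930210-103930349, plus strand (HSP90B1), chr22:28800590-28800649, minus strand (XBP1), chr22:49918534-49918593, plus strand (CRELD2) and chr22:49918529-49918588, minus strand (ALG12). The HSP90B1 promoter holds the element 2 times, starting 194 and 89 bases before the start, in opposite orientations, and HSPA5 holds 1 match at 66 bases. ALG12, a mannosyltransferase of glycan assembly, rose from 49.5 to 68.1 CPM (log2 fold change 0.46 ± 0.10, adjusted p = 7.11e-04), far less than CRELD2 across the same element. The full element is strict, and shorter or diverged elements were not searched. The CCAAT box alone was in 77.5% of the promoters of the folding and degradation list and in 34.8% of all tested promoters. A match describes letters in the window and is not a measurement of binding.

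Transcripts of the integrated stress response rose for most targets, while ATF4 itself passed only in some of the alternative fits. Of 24 tested genes 17 rose and 3 fell, with a median log2 fold change of 0.91. ATF4, the transcription factor whose protein level is controlled by translation, was at 562, 595 and 559 CPM in the control libraries and 582, 619.7 and 676 CPM under the knockdown plus CAPN2 label, and these ranges overlap (log2 fold change 0.13, 95% interval -0.07 to 0.33, adjusted p = 0.26). ATF4 was called higher with GC and length offsets (log2 fold change 0.32, adjusted p = 0.000375), with upper-quartile factors (0.23, adjusted p = 0.0457), with library totals (0.23, adjusted p = 0.0407) and when only the 6 compared libraries were fitted (0.14, adjusted p = 0.0392). DDIT3, which encodes the pro-apoptotic factor CHOP, was at 6.02, 5.19 and 5.60 CPM in the control libraries and 68.3, 72.9 and 78.5 CPM under the knockdown plus CAPN2 label. This 13.1-fold rise (log2 fold change 3.71 ± 0.14, adjusted p = 2.17e-13) was the second largest of the protein-coding genes with no overlap and at least 5 CPM on average, and DDIT3 shares exonic bases with MARS and MBD6 on the other strand. MARS was at 275 and 259 CPM without passing the test. Other factors of the response differed in direction: NUPR1 (log2 fold change 2.38), ATF3 (0.99) and CEBPG (0.82) rose, ATF5 fell (-1.09), and CEBPB did not pass the test at 137 and 128 CPM. The log2 fold change of CEBPB was -0.09, and 0.18 with GC and length offsets (adjusted p = 0.0524).

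The feedback and secreted targets of the response were higher in 12 of 13 cases. GDF15, a secreted stress hormone, was at 62.4, 73.6 and 67.6 CPM in the control libraries and 285, 296 and 322 CPM under the knockdown plus CAPN2 label (log2 fold change 2.15 ± 0.10, adjusted p = 2.84e-12). TRIB3, a pseudokinase that restrains ATF4 and AKT, was at 94.4, 108 and 95.3 CPM in the control libraries and 284, 284 and 304 CPM under the knockdown plus CAPN2 label (log2 fold change 1.55 ± 0.09, adjusted p = 8.19e-11). VEGFA, the main angiogenic growth factor, was at 173, 188 and 177 CPM in the control libraries and 587, 603 and 619 CPM under the knockdown plus CAPN2 label (log2 fold change 1.75 ± 0.083, adjusted p = 6.72e-12). None of the 3 genes had overlapping groups. INHBE, an inhibin beta chain, rose from 2.21 to 15.8 CPM, PPP1R15A, the phosphatase subunit that dephosphorylates eIF2, from 22.2 to 55.2 CPM, and DDIT4, an inhibitor of mTORC1, from 117 to 302 CPM. EIF4EBP1 was the only tested target not called, at 36.0 and 34.3 CPM (log2 fold change -0.07, and 0.10 with GC and length offsets). Among the kinases of eIF2, EIF2AK3 (PERK) rose with a log2 fold change of 1.24, EIF2AK4 fell with one of -0.30 (a call lost with upper-quartile factors, adjusted p = 0.068), and EIF2AK1 did not pass the test but was called lower with GC and length offsets (-0.20, adjusted p = 0.0137). EIF2AK2 fell as well (-0.26), a call that was lost without control replicate 1 or 3 or knockdown plus CAPN2 replicate 2 or 3 (adjusted p between 0.0507 and 0.0719) or with upper-quartile factors (adjusted p = 0.144).

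Genes of amino acid uptake rose for the most part, and those that charge transfer RNA were split. Of 15 tested transporters 10 rose and 2 fell, with a median log2 fold change of 0.90. SLC7A11, the cystine and glutamate exchanger, rose from 146 to 360.1 CPM, its partner chain SLC3A2 from 527 to 1001 CPM, the glutamine carrier SLC38A2 from 362 to 950.1 CPM and the neutral exchanger SLC1A4 from 36.6 to 91.5 CPM. SLC43A1, a low-affinity carrier of leucine, rose from 1.13 to 9.57 CPM and is among the 15 largest rises. Cytosolic aminoacyl-tRNA synthetases, which charge transfer RNA, had 11 members that rose and 7 that fell of 20. AARS, CARS, EPRS, GARS, IARS, LARS, NARS, SARS, TARS, WARS and YARS rose, led by WARS (from 301 to 663 CPM, log2 fold change 1.14) and IARS (from 299 to 569.6 CPM, 0.93). FARSA, FARSB, HARS, KARS, QARS, RARS and VARS fell, led by VARS (from 265 to 108 CPM, -1.29). The calls of EPRS and HARS were lost without control replicate 2 (adjusted p = 0.0564) and knockdown plus CAPN2 replicate 2 (adjusted p = 0.0536), and those of LARS and TARS with GC and length offsets (adjusted p = 0.273 and 0.0878). HARS also lost it with upper-quartile factors (adjusted p = 0.0979). Of the 17 mitochondrial synthetases 0 rose and 12 fell (median -0.43). Of the enzymes of serine, asparagine and one-carbon metabolism, ASNS, asparagine synthetase, rose from 10.8 to 25.7 CPM, ASS1, argininosuccinate synthase, from 49.0 to 165 CPM, and PSAT1 of serine synthesis from 188 to 318 CPM. PHGDH, its first enzyme, stood at 408 and 462 CPM without passing the test (but was called higher in the fit to the 6 compared libraries, at 0.19, and with upper-quartile factors, at 0.28), and the trifunctional folate enzyme MTHFD1 fell from 534 to 199 CPM.

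The composite C/EBP-ATF response element (CARE), TGATGNAA on either strand, was in 160 of 11490 tested promoters (1.39%). Of these 160 genes 68 were called higher, 43 lower and 49 not, with a median log2 fold change of 0.16 against 0.02 over all tested genes. Among all tested genes 27.9% were called higher and 28.4% lower. The element was present in ASNS, CHAC1 and HERPUD1, which are examples from the 68 called higher. No window of the 43 called lower is printed. The windows below show the element in capitals.
ASNS: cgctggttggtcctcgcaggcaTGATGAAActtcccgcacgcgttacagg
CHAC1: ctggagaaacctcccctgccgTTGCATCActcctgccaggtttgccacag
HERPUD1: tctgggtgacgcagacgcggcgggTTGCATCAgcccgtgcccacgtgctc
They lie at chr7:97872449-97872498, minus strand (ASNS), chr15:40953241-40953290, plus strand (CHAC1) and chr16:56931942-56931991, plus strand (HERPUD1). CHAC1, which degrades glutathione, rose from 21.2 to 37.8 CPM (log2 fold change 0.83).

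**Figure D3:**
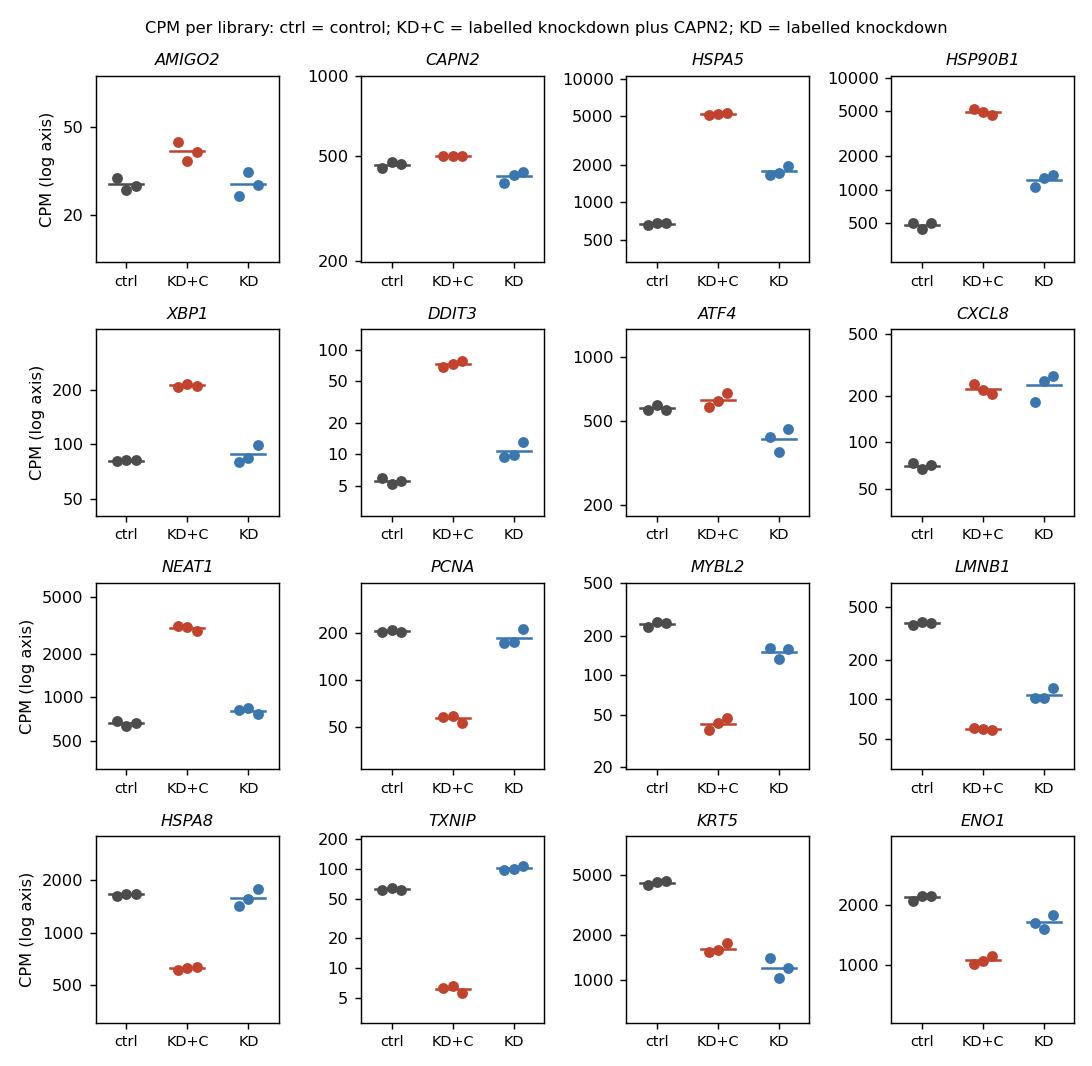
Points give the CPM of 16 genes in each library on log axes, with 3 libraries of control (ctrl), 3 labelled knockdown plus CAPN2 (KD+C) and 3 labelled knockdown (KD), and horizontal lines at group means. ER and stress genes are highest in the middle group, except ATF4, whose libraries there overlap those of control. PCNA, MYBL2, LMNB1, HSPA8, TXNIP and ENO1 are lowest in the middle group, and AMIGO2 is not lower in either set labelled with its knockdown.

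Genes of DNA replication fell with few exceptions. Of 51 tested genes 49 fell and 0 rose, against 28.4% lower among all tested genes, and their median log2 fold change was -1.38. RFC1 and DNA2 were the 2 members not called. With GC and length offsets both were called lower, at -0.40 (adjusted p = 9.16e-05) and -0.67 (adjusted p = 4.38e-06), and DNA2 was also called lower without control replicate 2 (adjusted p = 0.046) and with limma voom (adjusted p = 0.0418). All 17 tested genes of origin licensing and of the replicative helicase fell (median -1.56). Among them MCM10 was at 50.5, 46.8 and 48.3 CPM in the control libraries and 12.2, 11.5 and 10.95 CPM under the knockdown plus CAPN2 label (log2 fold change -2.07 ± 0.10, adjusted p = 1.23e-11). CDT1, the licensing factor, was at 81.3, 87.1 and 90.4 CPM in the control libraries and 18.2, 21.1 and 22.6 CPM under the knockdown plus CAPN2 label (log2 fold change -2.06 ± 0.11, adjusted p = 3.09e-11). The 6 helicase subunits MCM2 to MCM7 had log2 fold changes of -1.72, -1.22, -1.63, -1.52, -1.24 and -1.64. Each of the 6 fell by more than 2-fold.

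At the fork and in nucleotide supply the falls were of like size. PCNA, the sliding clamp, was at 205, 210.2 and 203 CPM in the control libraries and 58.0, 59.0 and 53.1 CPM under the knockdown plus CAPN2 label (log2 fold change -1.86 ± 0.10, adjusted p = 1.58e-11), with no overlap. FEN1, the flap nuclease that shares exonic bases with FADS2 and TMEM258, was at 184, 197 and 182 CPM in the control libraries and 34.4, 32.0 and 38.4 CPM under the knockdown plus CAPN2 label (log2 fold change -2.42 ± 0.11, adjusted p = 2.54e-12), the largest fall of the list. RRM2, the regulated subunit of ribonucleotide reductase, fell from 73.4 to 18.2 CPM, the salvage enzyme TK1 from 468 to 131 CPM and DUT, which keeps uracil out of DNA, from 161 to 43.1 CPM. Of 11 tested replication histone genes 5 fell and 0 rose, and most of their transcripts lack a poly(A) tail. In the libraries labelled knockdown alone PCNA was at 173, 177 and 212 CPM, MCM10 at 43.7, 46.6 and 44.9 CPM and RRM2 at 59.5, 76.2 and 83.0 CPM. The median log2 fold change of the list was -0.16 in those libraries against control and -1.20 in the direct contrast of knockdown plus CAPN2 with knockdown.

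The regulators of these genes fell as well. Among 29 tested factors, cyclins and kinases 23 fell and 1, CDK6, rose (median -1.13). E2F2 was at 27.8, 33.3 and 34.1 CPM in the control libraries and 2.84, 3.48 and 4.89 CPM under the knockdown plus CAPN2 label, the second largest fall of a protein-coding gene with no overlap and at least 5 CPM on average (log2 fold change -3.08 ± 0.18, adjusted p = 8.35e-11). MYBL2, which encodes B-MYB, was at 230.3, 251 and 251 CPM in the control libraries and 38.6, 43.0 and 47.0 CPM under the knockdown plus CAPN2 label (log2 fold change -2.51 ± 0.10, adjusted p = 1.10e-12). In both the groups were far apart. E2F1 fell from 58.4 to 21.9 CPM, FOXM1 from 319 to 98.3 CPM, and the phosphatase CDC25A, which starts S phase, from 46.3 to 11.1 CPM. Cyclin D1, CCND1, the cyclin amplified in many head and neck tumours, fell from 1526 to 619.5 CPM and cyclin B1, CCNB1, from 415 to 142 CPM. MYC was at 233, 242 and 231 CPM in the control libraries and 226, 237 and 248 CPM under the knockdown plus CAPN2 label, overlapping between groups (log2 fold change 0.01, adjusted p = 0.925), and RB1 at 83.0 and 85.6 CPM did not pass the test. The call of CDK6 (log2 fold change 0.38) was lost without control replicate 2 or 3 or knockdown plus CAPN2 replicate 1 or 2 (adjusted p between 0.0515 and 0.151). With GC and length offsets CDK6 was at -0.14, RB1 was called lower at -0.43 and MYC higher at 0.19.

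Cell cycle inhibitors and p53 targets were mixed. Of 24 tested genes 10 rose (41.7%) and 7 fell (29.2%), against 27.9% and 28.4% of all tested genes. CDKN1A, the inhibitor p21, rose from 59.1 to 88.2 CPM (log2 fold change 0.58), GADD45A from 56.1 to 86.7 CPM and MDM2 from 86.0 to 116 CPM, although MDM2 was at 0.01 and not called with GC and length offsets. CDKN2C, the INK4 inhibitor p18, fell from 26.6 to 8.80 CPM, and BAX, a pro-apoptotic target, from 52.7 to 32.1 CPM. In recombination and Fanconi repair 15 of 24 genes fell, with EXO1 at a log2 fold change of -1.86 and XRCC2 at -1.78, and 4 rose, or 2 with GC and length offsets. BRCA2, a mediator of homologous recombination, was the largest of these rises, at 11.4, 9.78 and 12.1 CPM in the control libraries and 48.8, 46.0 and 36.0 CPM under the knockdown plus CAPN2 label (log2 fold change 1.97 ± 0.18, adjusted p = 5.74e-08).

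Genes of mitosis fell for the most part, but several large motor and scaffold genes rose. Of 56 tested genes 39 fell and 6 rose (median -0.93). AURKA fell from 129 to 41.7 CPM, AURKB from 83.2 to 25.1 CPM, the kinase PLK1 from 283 to 83.2 CPM and BIRC5, the survivin subunit of the chromosomal passenger complex, from 327 to 94.2 CPM. KIFC1, a minus-end kinesin, was at 115, 115 and 119.7 CPM in the control libraries and 30.6, 30.004 and 33.1 CPM under the knockdown plus CAPN2 label (log2 fold change -1.90 ± 0.10, adjusted p = 3.99e-11). In contrast CENPE, the kinetochore kinesin, was at 18.5, 11.1 and 16.5 CPM in the control libraries and 79.5, 75.5 and 72.6 CPM under the knockdown plus CAPN2 label (log2 fold change 2.30 ± 0.14, adjusted p = 1.53e-10). KIF20B rose from 27.7 to 85.2 CPM, CENPF from 85.4 to 194 CPM and the spindle pole protein ASPM from 80.5 to 159 CPM. In the libraries labelled knockdown alone CENPE was at 10.3, 11.5 and 9.90 CPM and ASPM at 46.8, 62.8 and 36.7 CPM, and the direct contrast of knockdown plus CAPN2 with knockdown gave log2 differences of 2.84 (adjusted p = 2.10e-11) and 1.71 (adjusted p = 2.64e-07). The 6 members that rose had a GC content between 34.2% and 40.8% (median 37.0%) and the 39 that fell between 38.3% and 61.4% (median 46.8%). Over the 56 tested members the log2 fold change and the GC content had a Spearman rho of -0.87, given as a description across genes of the same libraries. With offsets for GC content and length in the fit, CENPE, KIF20B, CENPF and ASPM had log2 fold changes of 1.65, 0.98, 0.75 and 0.38, and the median of the list was -1.1.

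**Figure D4:**
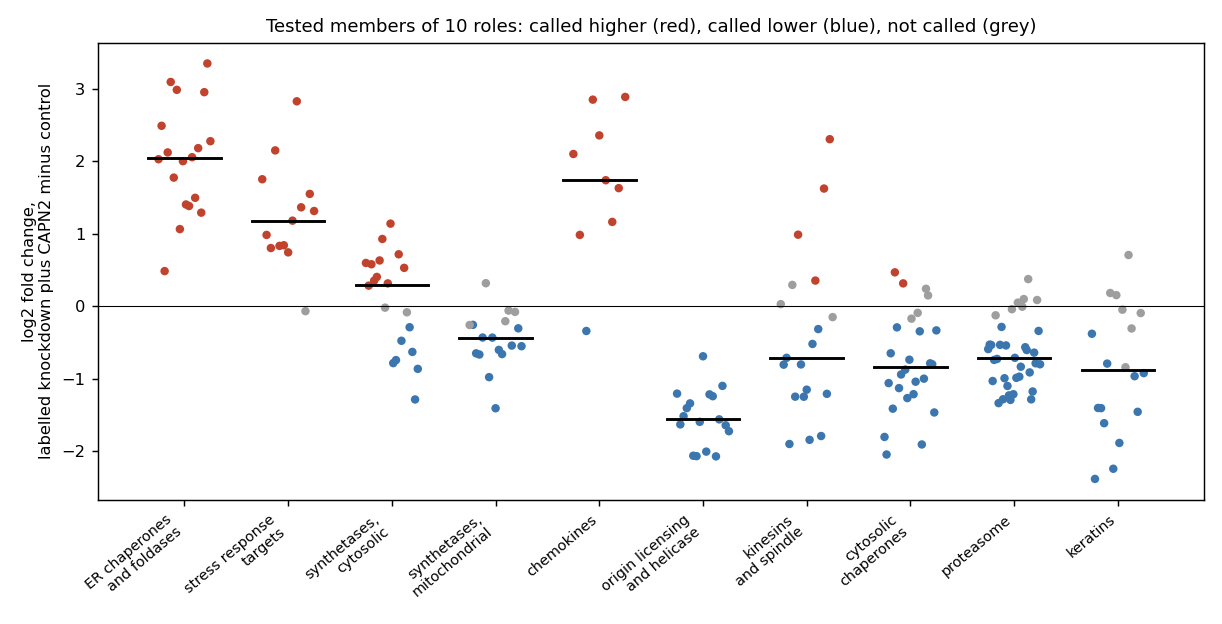
Each point is a tested member of 1 of 10 roles, placed by its log2 fold change in libraries labelled knockdown plus CAPN2 against control, red if called higher, blue if called lower and grey if not called, with black lines at the medians. All 18 ER chaperones and foldases lie above 0 and all 17 licensing and helicase genes below it, while kinesins and cytosolic synthetases spread to both sides.

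E2F sites and cell cycle elements were looked for in the same promoters, as letters and not as measured binding. The E2F letters TTTGGCGC, TTTCGCGC or TTTCCCGC on either strand were in 13 of 43 promoters of the replication list (30.2%) and in 444 of 11490 tested promoters (3.86%). The cell cycle homology region (CHR), searched as TTTGAA, was in 23 of 46 promoters of the mitosis list (50%) and in 8.42% of all. These windows show E2F sites of a helicase subunit, the clamp and E2F2 itself, and the CHR of PLK1 and of CDC20, an activator of the anaphase-promoting complex.
MCM6: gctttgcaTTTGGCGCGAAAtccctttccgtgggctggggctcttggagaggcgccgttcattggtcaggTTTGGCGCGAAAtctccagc
PCNA: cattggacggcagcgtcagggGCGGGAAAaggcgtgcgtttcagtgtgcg
E2F2: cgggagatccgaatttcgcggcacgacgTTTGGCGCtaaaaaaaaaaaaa
PLK1: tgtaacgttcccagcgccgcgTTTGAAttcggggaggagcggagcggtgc
CDC20: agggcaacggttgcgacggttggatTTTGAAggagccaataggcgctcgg
They lie at chr2:135876514-135876603, minus strand (MCM6), chr20:5126653-5126702, minus strand (PCNA), chr1:23531254-23531303, minus strand (E2F2), chr16:23678839-23678888, plus strand (PLK1) and chr1:43358891-43358940, plus strand (CDC20). In MCM6 2 pairs of overlapping matches in opposite orientations start 152 and 90 bases before the start. CDC20, which holds a second CHR match at 178 bases outside the window shown, fell from 450.3 to 112 CPM (log2 fold change -2.0 ± 0.091, adjusted p = 3.54e-12). ASPM, which rose, holds the CHR letters 113 bases before its start.

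Cytosolic chaperones went the opposite way from those of the ER. Of 26 tested heat shock and cytosolic or mitochondrial chaperone genes 20 fell and 2 rose (median log2 fold change -0.84), with 0 higher under GC and length offsets. HSPA8, the constitutive HSP70 of the cytosol, was at 1627, 1674 and 1671 CPM in the control libraries and 607, 627 and 632 CPM under the knockdown plus CAPN2 label (log2 fold change -1.41 ± 0.092, adjusted p = 3.33e-10). HSP90AB1, the constitutive cytosolic HSP90, was at 2868, 3034 and 2978 CPM in the control libraries and 1516, 1568 and 1537 CPM under the knockdown plus CAPN2 label (log2 fold change -0.94 ± 0.088, adjusted p = 3.73e-08). Neither had overlapping groups, and both fell while their ER relatives HSPA5 and HSP90B1 rose. HSPA9, the mitochondrial HSP70, rose from 544 to 677 CPM, a call that was lost with GC and length offsets (log2 fold change 0.08), and HSPE1, the mitochondrial co-chaperonin, fell from 56.3 to 15.02 CPM. HSPA1A and HSPA1B, near-identical copies whose reads the counting may split, had log2 fold changes of -2.05 and -1.47.

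Protein degradation by the proteasome and by autophagy also parted. Of 36 tested proteasome genes 29 fell and 0 rose (median -0.72), with 1 higher without knockdown plus CAPN2 replicate 2. PSMD2, a base subunit of the regulatory particle, was at 447, 465 and 479 CPM in the control libraries and 190.1, 210.2 and 199 CPM under the knockdown plus CAPN2 label (log2 fold change -1.21 ± 0.083, adjusted p = 6.51e-10), and PSMB5, the chymotrypsin-like subunit, fell from 187 to 76.8 CPM. In the autophagy role 11 of 19 genes rose and 2 fell. MAP1LC3B, which coats the autophagosome, rose from 43.2 to 112 CPM, the initiating kinase ULK1 from 80.4 to 209.7 CPM and the receptor SQSTM1 from 321 to 514 CPM. Of 20 lysosomal genes 4 were higher (20%) and 6 lower (30%), near the shares of all tested genes (27.9% and 28.4%). Over both roles 8 genes fell, or 5 with upper-quartile factors. LAMP3, an inducible lysosomal membrane protein, was at 18.6, 17.8 and 18.7 CPM in the control libraries and 117, 116 and 109 CPM under the knockdown plus CAPN2 label (log2 fold change 2.64 ± 0.10, adjusted p = 2.35e-13).

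Genes that build ribosomes and mitochondria were lower as groups. Of 40 tested ribosome biogenesis genes 34 fell and 1, TAF1D, rose (median -0.78). TAF1D lost its call without control replicate 2 or 3 or knockdown plus CAPN2 replicate 1 or 2 (adjusted p between 0.0806 and 0.17), and was called lower, at -0.33, with GC and length offsets. BOP1, a factor of large subunit processing, had a log2 fold change of -1.55 and NOLC1, a nucleolar phosphoprotein, of -1.36. RRS1, a factor of large subunit assembly, fell from 82.8 to 26.9 CPM. Cytosolic ribosomal proteins changed less, with 29 of 55 lower, 1 higher and a median of -0.25, and their many processed copies make single values uncertain. Without knockdown plus CAPN2 replicate 1, 19 of them were lower, as with upper-quartile scaling. Of 30 tested translation factors 18 fell and 6 rose, or 3 with GC and length offsets. EIF4G1, the scaffold of cap binding, fell from 1026 to 538 CPM and EIF5A from 850.2 to 346 CPM. Of 40 mitochondrial ribosomal proteins 33 fell and 1 rose (median -0.70), a single rise that was lost without any 1 of the 6 libraries but knockdown plus CAPN2 replicate 3. MRPL12 was at 39.9, 52.8 and 35.7 CPM in the control libraries and 5.62, 4.96 and 6.98 CPM under the knockdown plus CAPN2 label, the third largest fall by the same filters (log2 fold change -2.87 ± 0.37, adjusted p = 1.80e-04).

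Nuclear and mitochondrial genes of the respiratory chain did not move alike. Of 46 tested nuclear genes of oxidative phosphorylation 42 fell and 1, NDUFA5, rose (median -0.66). NDUFA5 lost its call without control replicate 1 or knockdown plus CAPN2 replicate 1 or 2 (adjusted p between 0.0569 and 0.0825), and was called lower, at -0.32, with GC and length offsets. CYC1, cytochrome c1 of complex III, fell from 189 to 88.4 CPM and ATP5MC3, a subunit of the ATP synthase ring, from 277 to 86.4 CPM. From the mitochondrial genome 5 of 15 tested genes rose (33.3%) and 3 fell (20%), against 27.9% and 28.4% of all tested genes. With GC and length offsets the risen ones were 2, and with the replicate block as well 2 rose and 5 fell. These transcripts overlap or abut, so that reads may be split between neighbours. MT-CO1 was at 13709, 13922 and 15163 CPM in the control libraries and 16756, 17895 and 16826 CPM under the knockdown plus CAPN2 label, a difference that passed (adjusted p = 0.0333) but not without any 1 of the 6 libraries (adjusted p between 0.0501 and 0.139) or with GC and length offsets (adjusted p = 0.0656). MT-CO3 fell from 6769 to 4377 CPM. MT-RNR2, the large ribosomal RNA of the mitochondrion, rose from 5136 to 9499 CPM (log2 fold change 0.89 ± 0.10, adjusted p = 4.68e-07). Its mean in the libraries labelled knockdown alone was 8818 CPM.

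Glycolysis and the pentose phosphate pathway were lower and hypoxia-linked genes higher. Of 39 tested genes of glycolysis, pentose phosphate and TCA cycle 30 fell and 5 rose (median -0.64). ENO1, enolase, was at 2098, 2243 and 2235 CPM in the control libraries and 1010.5, 1044 and 1108 CPM under the knockdown plus CAPN2 label (log2 fold change -1.06 ± 0.088, adjusted p = 8.15e-09). PKM, pyruvate kinase, fell from 2835 to 1269.8 CPM, TPI1 from 1089 to 526 CPM and transketolase, TKT, from 920.03 to 436 CPM. PCK2, the mitochondrial phosphoenolpyruvate carboxykinase, rose from 83.8 to 233 CPM and hexokinase 2, HK2, from 118 to 192 CPM. The 18 hypoxia-linked genes that rose, of 24 tested, included HIF1A (from 171 to 335 CPM), NDRG1 (from 372 to 929 CPM) and the collagen prolyl hydroxylase P4HA1 (from 44.3 to 103 CPM), and 2, ANGPTL4 and EPAS1, fell. VEGFA, DDIT4 and STC2 stand in this list and in that of the stress response, so the lists are not independent. PGK1 and LDHA, glycolytic enzymes that are themselves known hypoxia targets, fell from 438 to 280.4 CPM and from 951 to 548 CPM.

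TXNIP had the largest fall of the protein-coding genes with no overlap and at least 5 CPM on average. TXNIP, an arrestin that limits glucose uptake and binds thioredoxin, was at 62.0, 64.2 and 61.2 CPM in the control libraries and 6.30, 6.56 and 5.57 CPM under the knockdown plus CAPN2 label, and at 97.2, 101.3 and 108 CPM in the libraries labelled knockdown alone. The libraries labelled knockdown plus CAPN2 lay far below the other 6 (log2 fold change -3.34 ± 0.11, adjusted p = 6.03e-14; against knockdown, log2 difference -4.05, adjusted p = 5.82e-15). Among its relatives, ARRDC4 fell from 12.5 to 4.34 CPM and ARRDC3 rose from 18.7 to 52.0 CPM. TXNIP and ARRDC4 are known targets of the glucose-sensing pair MLXIP and MLX. MLX was at 42.1 and 46.3 CPM without passing the test, though it was called higher with GC and length offsets, at 0.27, and with upper-quartile factors, at 0.24. MLXIP fell from 196 to 155 CPM, a call that was lost without knockdown plus CAPN2 replicate 1 (adjusted p = 0.0564) or with upper-quartile factors (adjusted p = 0.0587).

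Sterol synthesis fell while sterol export rose at 2 transporters. Of 37 tested genes of cholesterol and fatty acid synthesis 25 fell and 4 rose (median -0.46), with 7 higher under upper-quartile factors or in the fit to the 6 compared libraries. DHCR7, a late enzyme of cholesterol synthesis, was at 186, 189.6 and 195 CPM in the control libraries and 60.1, 57.5 and 68.2 CPM under the knockdown plus CAPN2 label (log2 fold change -1.62 ± 0.093, adjusted p = 8.05e-11). Mevalonate kinase, MVK, fell from 51.0 to 17.5 CPM and ACLY, which supplies acetyl-CoA, from 342 to 149 CPM. STARD4, a sterol carrier, rose from 46.2 to 105 CPM. ABCA1, which loads cholesterol onto apolipoprotein, was at 4.13, 3.71 and 4.74 CPM in the control libraries and 43.7, 35.1 and 36.3 CPM under the knockdown plus CAPN2 label (log2 fold change 3.19 ± 0.14, adjusted p = 3.18e-12). ABCG1, its partner in export, was at 3.04, 3.30 and 3.32 CPM in the control libraries and 25.2, 27.4 and 26.6 CPM under the knockdown plus CAPN2 label (log2 fold change 3.03 ± 0.15, adjusted p = 1.13e-11). Both were above every control library by a wide margin, and their means in the libraries labelled knockdown alone were 7.78 and 3.00 CPM. Of the 8 tested members of that list 3 rose and 3 fell, and MYLIP, another target of the sterol-sensing LXR factors, was among those that fell (from 37.3 to 28.01 CPM).

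Antioxidant genes under NRF2 moved in both directions. Of 31 tested genes 10 rose (32.3%) and 15 fell (48.4%), against 27.9% and 28.4% of all tested genes. SLC7A11 and the exporter ABCC3 (from 31.9 to 104 CPM) rose, and NFE2L2, which encodes NRF2, rose from 145 to 270.1 CPM. The carbonyl reductases CBR1 and CBR3 fell from 42.5 to 12.4 CPM and from 5.75 to 1.17 CPM, and NQO1, a quinone reductase, fell from 686 to 536 CPM.

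Inflammatory cytokines rose at low to moderate levels. Of 39 tested genes of NF-kB, chemokines and interleukins 28 rose and 6 fell (median log2 fold change 1.08). Of the 9 tested chemokines 8 rose and 1, CXCL16, fell. The fall of CXCL16 (log2 fold change -0.34) was not called with GC and length offsets (-0.15, adjusted p = 0.143). CXCL8, the neutrophil attractant interleukin-8, was at 73.4, 67.5 and 71.4 CPM in the control libraries and 237, 216 and 203 CPM under the knockdown plus CAPN2 label (log2 fold change 1.63 ± 0.12, adjusted p = 1.31e-09), and at 182, 248 and 266 CPM in the libraries labelled knockdown alone. CCL20, which attracts cells through CCR6, was at 8.12, 9.55 and 9.66 CPM in the control libraries and 65.5, 69.0 and 62.8 CPM under the knockdown plus CAPN2 label (log2 fold change 2.85 ± 0.14, adjusted p = 9.35e-12), and at 16.0, 16.9 and 23.3 CPM in those labelled knockdown alone. The groups labelled knockdown plus CAPN2 and knockdown alone thus overlapped each other for CXCL8 but not for CCL20. IL1A, an alarmin of keratinocytes, was at 69.1, 56.5 and 68.8 CPM in the control libraries and 315, 301 and 272 CPM under the knockdown plus CAPN2 label (log2 fold change 2.19 ± 0.11, adjusted p = 1.82e-11), whereas IL1B was at 143 and 136 CPM without passing the test (log2 fold change -0.07, and 0.04 with upper-quartile factors). CXCL2 rose from 4.14 to 30.7 CPM and CXCL3 from 2.42 to 12.4 CPM.

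Within the NF-kB pathway, feedback genes and subunits differed in direction. NFKBIZ rose from 31.6 to 122 CPM, the deubiquitinase TNFAIP3 from 144 to 303 CPM, the ligase BIRC3 from 28.03 to 90.8 CPM and REL from 17.4 to 35.6 CPM. RELA fell from 324 to 235 CPM, BCL3 from 109 to 52.9 CPM and RELB from 39.9 to 27.999 CPM, the last not with GC and length offsets (adjusted p = 0.0723), and NFKB1 and NFKB2 did not pass the test, though NFKB1 was called lower with GC and length offsets (-0.15, adjusted p = 0.0277) and when only the 6 compared libraries were fitted (-0.16, adjusted p = 0.0171). Interferon-stimulated genes had 16 of 34 higher and 11 lower, with SAMD9L (from 11.6 to 48.1 CPM) and IFI44L (from 24.8 to 69.7 CPM) rising and OAS3 (from 478 to 315 CPM) and BST2 (from 84.1 to 50.2 CPM) falling. In antigen presentation B2M rose from 752 to 1096 CPM (log2 fold change 0.54), a call that was lost with GC and length offsets (0.24, adjusted p = 0.0569). There ERAP1 rose from 109 to 229 CPM, while the inducible proteasome subunits PSMB8, PSMB9 and PSMB10 fell with log2 fold changes of -0.57, -0.82 and -1.20.

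Genes listed as EGF ligands, receptors and regulators rose where they passed the test. Of 14 tested ligands, receptors and regulators 9 rose and 0 fell (median 0.67), with 3 lower under GC and length offsets. AREG, amphiregulin, rose from 62.9 to 116 CPM, HBEGF from 17.1 to 43.8 CPM and the feedback inhibitor ERRFI1 from 56.8 to 136 CPM. MET, a listed receptor that is not of the EGF family, rose from 254 to 478 CPM. EREG, TGFA and NRG1 did not pass the test, though EREG and NRG1 were called lower with GC and length offsets, at -0.76 and -0.25, and EREG also without knockdown plus CAPN2 replicate 1 (adjusted p = 0.0453). Targets of MAPK signalling were mixed: DUSP1 (from 13.0 to 28.8 CPM), PHLDA1 (from 58.2 to 128 CPM) and EGR1 (from 47.7 to 99.6 CPM) rose, and DUSP7 (from 248 to 119 CPM), HMGA2 (from 33.8 to 11.6 CPM) and FOSL1 (from 244 to 154 CPM) fell. JUN rose from 90.9 to 161 CPM. FOS fell from 23.1 to 17.9 CPM, a call that was lost without control replicate 2 (adjusted p = 0.0783) or knockdown plus CAPN2 replicate 1 (adjusted p = 0.0636), with upper-quartile factors (adjusted p = 0.0683) or with GC and length offsets (adjusted p = 0.0869).

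Keratins fell, while desmosome genes moved both ways. Of 18 tested keratins 11 fell and 0 rose (median -0.88). KRT5, the basal keratin, was at 4288, 4479 and 4544 CPM in the control libraries and 1524, 1571 and 1753 CPM under the knockdown plus CAPN2 label (log2 fold change -1.46 ± 0.10, adjusted p = 1.16e-09), and at 1391, 1031 and 1199 CPM in the libraries labelled knockdown alone. Its partner KRT14 was at 246, 267 and 271 CPM in the control libraries and 48.6, 52.2 and 64.9 CPM under the knockdown plus CAPN2 label (log2 fold change -2.24 ± 0.13, adjusted p = 1.70e-10). KRT15, a keratin of basal and progenitor cells, fell from 115 to 22.1 CPM, KRT13 from 28.3 to 7.65 CPM and KRT19 from 1094 to 414 CPM. KRT17 was at 1749, 1921 and 1910.3 CPM in the control libraries and 1608, 1663 and 1954 CPM under the knockdown plus CAPN2 label, where the groups overlapped (log2 fold change -0.09, adjusted p = 0.496, and 0.13 with GC and length offsets), and reads of keratin genes with close copies may be split. TP63, the lineage factor of squamous basal cells, was at 315 and 331 CPM without passing the test, though it was called lower, at -0.19, with GC and length offsets, and SOX2 fell from 6.18 to 2.20 CPM. Of the 11 tested desmosome genes 5 fell (45.5%) and 4 rose (36.4%), against 28.4% and 27.9% of all tested genes. JUP fell from 665 to 386 CPM, DSP from 1128 to 722 CPM and PKP3 from 266 to 135 CPM, while the cadherin DSG3 rose from 116 to 179 CPM. E-cadherin, CDH1, rose from 381 to 614 CPM and N-cadherin, CDH2, from 4.18 to 14.6 CPM, and ZEB1, ZEB2 and VIM were below the filter on low counts. In the list of mesenchymal transition 7 of 16 tested genes rose (43.75%) and 5 fell (31.25%). In that of squamous differentiation 2 of 15 rose (13.3%), or 1 with GC and length offsets, and 5 fell (33.3%).

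Of 43 tested integrin, laminin, collagen and crosslinking genes 25 rose and 5 fell (median 0.64). With GC and length offsets the fallen ones were 10. In the libraries labelled knockdown alone against control the median of the list was 0.46. The direct contrast of knockdown plus CAPN2 with knockdown had a median of 0.02. LAMB3, a chain of laminin-332, was at 383, 408 and 386 CPM in the control libraries and 1048, 1067 and 1173 CPM under the knockdown plus CAPN2 label (log2 fold change 1.48 ± 0.089, adjusted p = 1.31e-10). COL7A1, the anchoring fibril collagen, was at 90.7, 102 and 98.7 CPM in the control libraries and 279, 272 and 305 CPM under the knockdown plus CAPN2 label (log2 fold change 1.55 ± 0.10, adjusted p = 1.93e-10), and its mean in the libraries labelled knockdown alone was 62.5 CPM. Neither gene had overlapping groups. ITGB8 rose from 18.6 to 48.5 CPM, TNC from 10.7 to 34.3 CPM and the lysyl oxidase LOXL2 from 140.4 to 322 CPM, and ITGB4, the hemidesmosome integrin, fell from 516 to 372 CPM. Of 14 tested metalloproteinases 6 rose and 1 fell, and 3 that were high in the libraries labelled knockdown alone did not pass the test here. MMP1, the interstitial collagenase, was at 64.3, 66.3 and 62.3 CPM in the control libraries and 62.8, 62.4 and 61.1 CPM under the knockdown plus CAPN2 label and at 386, 459 and 482 CPM in those labelled knockdown (log2 fold change against control -0.05, 95% interval -0.25 to 0.14, adjusted p = 0.664; against knockdown -2.83, adjusted p = 9.57e-14). MMP10 was at 21.2, 18.1 and 163 CPM and MMP13 at 164, 155 and 533 CPM in control, knockdown plus CAPN2 and knockdown, and in the direct contrast with knockdown they had log2 differences of -3.17 (adjusted p = 7.98e-14) and -1.79 (adjusted p = 1.55e-11). With GC and length offsets all 3 were called lower than in control, at -0.19, -0.36 and -0.37. PLAU, the urokinase gene, rose from 249 to 748 CPM, while PLAT fell from 62.3 to 20.2 CPM.

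Targets of YAP and TAZ and genes of TGF-beta signalling moved both ways in like numbers, and Wnt and Notch genes fell more often than they rose. Of all tested genes 27.9% rose and 28.4% fell. Of 23 tested YAP and TAZ targets 9 rose (39.1%) and 7 fell (30.4%), with AMOTL2 (from 64.2 to 138 CPM) and IGFBP3 (from 94.9 to 237 CPM) higher and TEAD4 (from 52.7 to 21.2 CPM) and FJX1 (from 53.4 to 18.02 CPM) lower. In the TGF-beta list 8 of 24 rose (33.3%) and 7 fell (29.2%), near the shares of all tested genes. In the Wnt and Notch list 7 of 36 rose and 20 fell, among them NRARP (from 264 to 69.1 CPM), a target and inhibitor of Notch, and ZNRF3 (from 32.3 to 12.6 CPM), which removes Wnt receptors. Of 34 tested apoptosis regulators 10 rose (29.4%) and 8 fell (23.5%), also near the shares of all tested genes. PMAIP1, which encodes NOXA, rose from 21.5 to 43.6 CPM, BIRC2 from 57.1 to 127 CPM and TNFSF10, the ligand TRAIL, from 47.2 to 96.9 CPM, and MCL1 fell from 499 to 332 CPM.

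Nuclear structure and RNA processing genes also changed. Of 18 tested genes of lamina, envelope and pores 13 fell and 1, SYNE2, rose (median -0.65). LMNB1, lamin B1, was at 366, 383 and 380.3 CPM in the control libraries and 60.3, 59.2 and 58.5 CPM under the knockdown plus CAPN2 label, and at 102, 102 and 121 CPM in the libraries labelled knockdown alone (log2 fold change -2.67 ± 0.092, adjusted p = 9.75e-14). LMNB2 fell from 461 to 136 CPM and LMNA from 525 to 239 CPM. Among splicing factors 17 of 36 fell and 12 rose. PTBP1 fell from 732 to 339 CPM and HNRNPF from 587 to 229 CPM, and MBNL2, a muscleblind protein, rose from 25.6 to 112 CPM. Of 20 tested long non-coding RNAs 12 were called higher and 2 lower, or 5 lower with GC and length offsets. NEAT1, the scaffold of paraspeckles, was at 685, 631 and 661 CPM in the control libraries and 3127, 3059 and 2878 CPM under the knockdown plus CAPN2 label, and at 817, 846 and 763 CPM in the libraries labelled knockdown alone (log2 fold change 2.20 ± 0.087, adjusted p = 6.55e-13). MALAT1 rose from 237 to 512 CPM and DANCR fell from 64.0 to 19.5 CPM. Of 16 host genes of small nucleolar RNAs 8 rose and 7 fell, and the risen ones were 5 without control replicate 3 or knockdown plus CAPN2 replicate 1, and with GC and length offsets. Between ER and Golgi 16 of 39 genes rose and 8 fell, or 3 with upper-quartile factors. The long coiled-coil tethers GOLGB1 and GOLGA4 rose from 24.7 to 207 CPM and from 33.6 to 252 CPM, whereas the cargo receptor KDELR1 fell from 179 to 128 CPM.

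The 15 largest rises of protein-coding genes without overlap and averaging at least 5 CPM were led by NUCB2, a calcium-binding protein of the Golgi and precursor of nesfatin-1. NUCB2 was at 13.0, 10.4 and 12.7 CPM in the control libraries and 168, 168 and 156 CPM under the knockdown plus CAPN2 label, and at 23.9, 27.7 and 27.7 CPM in the libraries labelled knockdown alone (log2 fold change 3.77 ± 0.11, adjusted p = 4.46e-14). DDIT3, HSP90B1, ERO1B, SLC43A1, ABCA1, ABCG1 and GOLGB1 are described above. CRELD1, a relative of CRELD2, rose from 9.99 to 91.2 CPM, the membrane-binding annexin ANXA6 from 2.39 to 21.6 CPM, and the long genes ANKRD12, AKAP9, CEP290 and FSIP2 had log2 fold changes of 3.22, 3.03, 2.99 and 3.13. SPX, a peptide hormone precursor, had one of 3.10. The falls after TXNIP, E2F2 and MRPL12 were LMNB1 (-2.67), SAC3D1 (-2.65), ZNF488 (-2.59), MYBL2 (-2.51), FEN1 (-2.42), NUDT8 (-2.40), POLR2L (-2.40), INPP5D (-2.39), KRT15 (-2.38), TUBB (-2.34), HAS3 (-2.29) and SAPCD2 (-2.28). TUBB, a widely expressed beta-tubulin, was at 1024, 1088 and 1079 CPM in the control libraries and 203, 211 and 217 CPM under the knockdown plus CAPN2 label. HAS3, a hyaluronan synthase, overlaps CHTF8 on the other strand. Outside protein-coding genes the largest rises were AL035681.1, DLGAP1-AS2 (from 14.4 to 83.1 CPM), MMP25-AS1, NEAT1 and AC083837.2, and the largest falls MT-TY, AC006329.1 and the processed pseudogenes AC112777.1, UQCRFS1P1 and PPP1R14BP3. The call of MT-TY, a transfer RNA of the mitochondrion, was lost without any 1 of the 6 libraries (adjusted p between 0.0757 and 0.108). Of the genes named here, AC083837.2, AL035681.1, ALG12, AMIGO2, ATF5, CAST, CBR3, CCND1, CEP290, CHTF8, CRELD2, CXCL16, DDIT3, DERL1, DNAJB11, DNAJB9, EIF2A, EIF2AK1, EIF2AK2, ERAP1, FADS2, FEN1, FICD, FOXM1, HARS, HAS3, HSPE1, KARS, LMNB2, LOXL2, MAP1LC3B, MARS, MBD6, MCM2, MLX, MMP25-AS1, MT-CO3, MT-TY, MTHFD1, MVK, NFE2L2, POLR2L, PSMB10, PSMB8, PSMB9, SEC61A1, SERP1, SQSTM1, SYVN1, TAF1D, TMEM120A, TMEM258 and YARS share exonic bases with another gene, and where reads from both cannot be told apart their values are uncertain.

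The direction of change varied with gene class. By GC content of the longest transcript, the median log2 fold change was 0.35, 0.07, -0.11 and -0.24 from the lowest to the highest quartile of tested genes, and 1926 of 4202 genes in the lowest quartile were higher against 738 of 4201 in the highest. By length the medians were 0.00, -0.11, -0.01 and 0.19, and by level 0.36, 0.13, -0.09 and -0.16. Across 16802 genes the Spearman rho of the log2 fold change with GC content was -0.287 and with length 0.098, as a description across genes of the same libraries. Protein-coding genes had a median of -0.06, lincRNAs of 0.42 and antisense RNAs of 0.42. LincRNAs made up 0.409% ± 0.00957 of counts in the control libraries and 0.799% ± 0.0274 under the knockdown plus CAPN2 label (SD, n = 3). Within the ER folding list the rho with GC content was 0.04 over 43 genes and within the stress response list 0.06 over 24, while it was -0.71 over 40 mitochondrial ribosomal proteins and -0.62 over 26 cytosolic chaperones. The part of GC content, length and RNA quality in the results was not tested beyond a fit with GC and length offsets, in which the median of the ER list was 1.03, of the stress response list 1.03, of DNA replication -1.45, of the proteasome -0.86 and of splicing factors -0.54 against -0.16 without them.

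**Figure D5:**
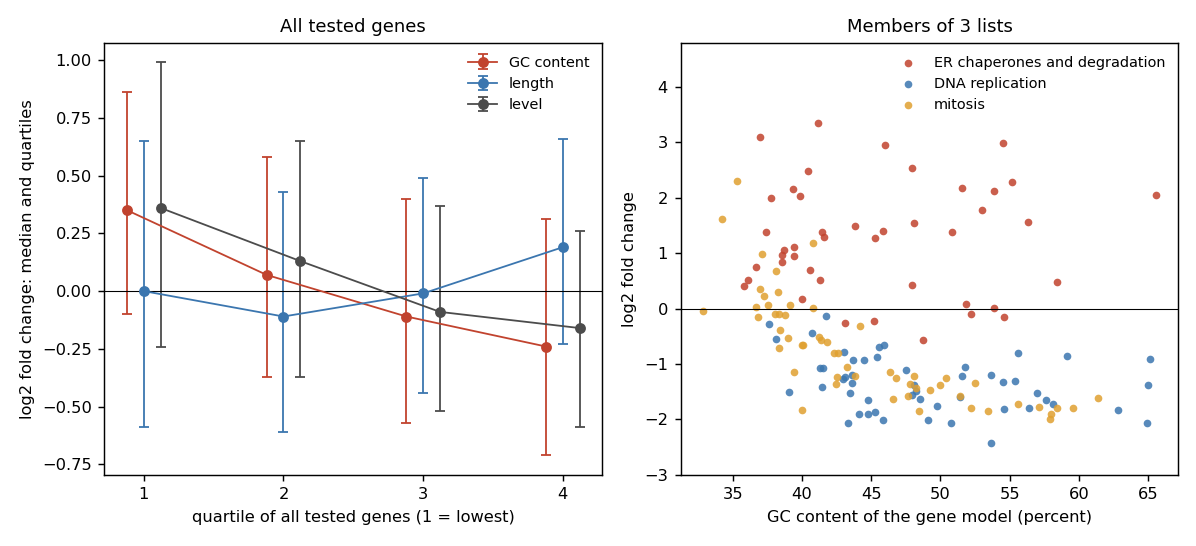
Left, medians (points) and quartiles (bars) of the log2 fold change in each quartile of GC content, length and level over all tested genes. Right, the log2 fold change of each tested member of the ER, DNA replication and mitosis lists against the GC content of its gene model (longest transcript) in percent. In mitosis the members with low GC content lie above those with high GC content, and ER genes lie above 0 over the whole range of GC content apart from 2 called lower and a few not called.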

How the data were processed

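RNA of 9 FaDu cultures was sequenced as 3 groups of 3 with a NEBNext Ultra RNA kit, per the labels' protocols. The authors deposited raw read counts per gene for 58735 genes. The submitters' processing notes list HISAT2 2.0.5, StringTie 1.3.3b, featureCounts 1.5.0-p3 and hg19 without roles, whereas all 58735 gene coordinates in the deposited table match GENCODE annotation on GRCh38. Strand and multiple-match settings of the counting are not stated there, so overlapping genes and near-identical copies are uncertain.

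Counts of all 9 libraries were fitted together with edgeR 4.0.16 in R 4.3.3 (TMM factors, a filter on low counts with a minimum of 10, quasi-likelihood test, Benjamini-Hochberg adjustment), so that the groups share 1 estimate of spread. A gene was called at an adjusted p under 0.05. Total counts per library ran from 15158607 to 19737562. Levels are CPM with TMM scaling, and RPKM where HSPA5, HSP90B1 and P4HB are compared. GC content was that of the longest annotated transcript of each gene (GENCODE on GRCh38). The fit was tested on simulated data with known changes.

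The 54 gene lists and the comparison were chosen with earlier results of these data known. Genes named are AMIGO2 and CAPN2, the 15 largest rises and falls of called protein-coding genes and the 5 largest of others (no overlap of the 6 libraries, mean of at least 5 CPM), the 10 called genes with the highest mean CPM, the up to 4 risen and 4 fallen members of each list with the lowest adjusted p, and members of roles with at most 20 tested genes. PCNA, HSP90AB1, HIF1A, NQO1, ALG12 and other holders of the ER stress response element were named in addition, chosen after their values were seen. Some genes that these rules name are not reported here. Alternatives used DESeq2 1.42.0, limma 3.58.1, other scalings, filters and offsets, a replicate term and leaving out each library. Promoters were RefSeq sequences of GRCh38.p14.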

Additional observations from a re-analysis of the deposited data

How the results depend on the processing

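The number of called genes, 9468, ranged from 8317 to 10775 over the alternatives other than the test against a change of 1.2-fold, which called 7275, and from 8317 to 8883 when 1 library was left out. The median log2 fold change of all genes was 0.02, and 0.13 and 0.12 with upper-quartile factors and library totals. AMIGO2 kept its call in every alternative, with log2 fold changes from 0.42 to 0.60, and from 0.42 to 0.56 when 1 library was left out. CAPN2 was called with upper-quartile factors (0.21), library totals (0.21) and the fit to the 6 compared libraries (0.12), and was at -0.09 with GC and length offsets, alone or with the replicate block, and between 0.08 and 0.12 without 1 library. With GC and length offsets, alone and with the replicate block, the direction changed, with a call in at least 1 of the fits compared, for CAST (-0.16), CDK6 (-0.14), NDUFA5 (-0.32 and -0.31), NRG1 (-0.25), RB1 (-0.43), TAF1D (-0.33) and TP63 (-0.19), and for the medians of calpains (-0.07), genes of the mitochondrial genome (-0.09), small nucleolar RNA hosts (-0.22) and antigen presentation (0.10). The last was 0.01 with upper-quartile factors and with library totals, and the median of sterol export was 0.01 with the replicate block and offsets and 0.03 without control replicate 1. The cause was not tested. Of 307 other genes named in the text 42 changed their call, or their direction with a call in at least 1 of the fits compared, under at least 1 alternative, and 14 lost their call without 1 library. A further 8 genes that were called in neither fit had the other sign under at least 1 alternative, 5 of them with GC and length offsets, namely CAPNS1 (0.15), CEBPB (0.18), EIF4EBP1 (0.10), KRT17 (0.13) and NFKB2 (0.13), and the other 3, IL1B, MARS and TGFA, with upper-quartile factors and library totals. No other called gene named in the text changed direction.

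The labels do not say whether the replicate numbers pair the cultures. Deviations of same-numbered libraries from their group means correlated at 0.03, -0.015 and -0.043, and not every library correlated best with its own number. With 3 libraries a group, whose deviations sum to 0, these values cannot tell whether same-numbered cultures shared a day or batch. With the replicate block 9149 genes were called, 9092 of them also without it. The share of promoters holding the ER stress response element was 0.0522% in a window of 100 bases against 0.113% in 250. With 3 libraries a group and totals between 15158607 and 17730088 counts, the median SE was 0.142 on the log2 scale, which limits what differences can pass.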
